A study of Mus musculus with 108 samples.

Results

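Distal sites that scored in blood progenitors and at no earlier stage were taken from a reporter screen in mouse cells. Fragments of open chromatin were placed before a minimal HSP68 promoter and a gene for Venus-YFP, a yellow fluorescent protein, and brought by homologous recombination into HM-1 cells, mouse embryonic stem cells whose Hprt locus is broken and is repaired by the cassette. The pool of cells was sorted by YFP as embryonic stem cells (ES), which were not differentiated, and after in vitro differentiation in serum as FLK1+ hemangioblasts (HB), hemogenic endothelium of the first (HE1) and second (HE2) stage and hematopoietic progenitors (HP). Each of the 5 stages had 5 replicates, sorted into Negative, Low, Medium and High gates, or in replicate 5 into Negative, Low and Medium/High gates. This gave 95 lists of the fragments carried by the sorted cells, with 126 to 45186 distal fragments each. All stages carry the same kind of cassette in the same line, and the labels name no separate cultures, so the spread between replicates may be partly technical.

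Overlapping distal fragments of all lists merged into 58916 sites. A site was kept as HP-only when Low, Medium, High or Medium/High lists held a fragment of it in 2 or more HP replicates but those of no earlier stage did so in any replicate. The sites were thus chosen by the presence of fragments in the YFP-positive lists, and 768 were left. They were a small share of the sites seen in 2 or more HP replicates, 768 of 11217 (6.85%), since 10449 such sites were also positive at an earlier stage. The positive lists chose these sites, so what those lists hold at them is a description and carries no test.

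An enhancer is a stretch of DNA that raises transcription from a promoter when the right transcription factors occupy it, often at a distance from the gene. Blood progenitors bud from hemogenic endothelium in a step that needs RUNX1, and factors of the RUNX, ETS, GATA and C/EBP families then set up the red cell, platelet and myeloid programmes. AP-1 and TEAD factors are better known from the endothelial steps before it.

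The sequences of 8 HP-only sites are shown, picked because they carry words for blood factors that the results below count. They come from the GRCm38 assembly (mm10), plus strand. Capitals mark TGTGGT or its reverse complement (the core word of RUNX), AGGAAGT or its reverse complement (an ETS word close to that of PU.1) and AGATAA or its reverse complement (GATA). The site nearest to Capn5, a calpain protease gene, lay at chr7:98187499-98187667. Those nearest to Cebpa (C/EBP alpha, a factor of granulocyte and monocyte development) and Stat5a (a transcription factor of cytokine signalling) lay at chr7:35098824-35099066 and chr11:100879883-100880003. The Vwf site lay in the gene of von Willebrand factor, an adhesion protein of platelets and endothelium, at chr6:125564853-125565018. Etv6, an ETS repressor gene, held a site at chr6:134055255-134055517. The site nearest to Irf8, which encodes a factor of monocyte and dendritic cell development, lay at chr8:120821525-120821685. That nearest to Kif20b, a kinesin gene, lay at chr19:35419920-35420193. Of the Lyrm9 site the middle part is given, chr11:78830255-78830454.
Capn5 site: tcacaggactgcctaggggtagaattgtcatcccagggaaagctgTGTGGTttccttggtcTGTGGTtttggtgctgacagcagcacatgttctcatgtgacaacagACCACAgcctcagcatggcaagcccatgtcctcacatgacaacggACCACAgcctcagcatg
Cebpa site: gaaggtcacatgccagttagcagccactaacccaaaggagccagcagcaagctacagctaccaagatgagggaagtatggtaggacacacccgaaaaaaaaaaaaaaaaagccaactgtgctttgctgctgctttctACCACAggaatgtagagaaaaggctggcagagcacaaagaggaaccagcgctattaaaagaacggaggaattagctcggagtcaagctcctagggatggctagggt
Stat5a site: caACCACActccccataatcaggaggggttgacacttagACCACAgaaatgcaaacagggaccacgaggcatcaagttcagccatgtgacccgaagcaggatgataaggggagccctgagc
Vwf site: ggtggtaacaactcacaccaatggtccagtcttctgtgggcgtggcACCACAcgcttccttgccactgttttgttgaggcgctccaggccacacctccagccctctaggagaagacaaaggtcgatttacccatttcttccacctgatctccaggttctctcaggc
Etv6 site: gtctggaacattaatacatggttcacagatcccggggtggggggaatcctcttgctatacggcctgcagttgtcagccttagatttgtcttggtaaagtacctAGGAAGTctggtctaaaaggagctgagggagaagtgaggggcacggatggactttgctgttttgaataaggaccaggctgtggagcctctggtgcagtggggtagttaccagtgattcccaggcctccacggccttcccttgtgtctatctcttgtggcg
Irf8 site: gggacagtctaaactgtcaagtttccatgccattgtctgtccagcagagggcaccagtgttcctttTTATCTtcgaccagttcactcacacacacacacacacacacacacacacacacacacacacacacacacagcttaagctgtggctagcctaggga
Kif20b site: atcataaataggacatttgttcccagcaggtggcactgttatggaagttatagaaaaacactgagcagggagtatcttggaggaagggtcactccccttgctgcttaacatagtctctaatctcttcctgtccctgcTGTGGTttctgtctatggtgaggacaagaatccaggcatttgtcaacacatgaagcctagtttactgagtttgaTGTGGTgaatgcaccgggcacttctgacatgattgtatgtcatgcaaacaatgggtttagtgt
Lyrm9 site: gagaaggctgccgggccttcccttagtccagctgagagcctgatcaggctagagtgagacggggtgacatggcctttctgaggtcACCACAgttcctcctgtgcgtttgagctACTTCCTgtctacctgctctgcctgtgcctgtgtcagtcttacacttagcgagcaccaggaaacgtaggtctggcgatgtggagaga

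The Capn5 site held 4 RUNX words in 169 bp, on both strands, and the Kif20b and Stat5a sites 2 each. The Cebpa and Vwf sites held 1 RUNX word each. The Lyrm9 window held both a RUNX and an ETS word, Etv6 an ETS word and Irf8 a GATA word. The printed sites were picked for these words. The windows of the Kdm6b, Bicra, Cd44, Ptprc and Mef2c sites, described below, held none of the marked words. These matches are letters in the genome and say nothing of binding.

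Support for single sites was thin. The 5 HP replicates listed 74457, 22985, 694, 920 and 1464 positive distal fragments, replicates 1 to 5 in order. Replicates 1 and 2 therefore carried the choice, and 683 of the 768 sites (88.9%) rested on these 2 alone. Of all 768, 752 were positive in exactly 2 replicates, 16 in 3 and 0 in 4 or 5. Just outside the rule lay 4050 sites with 1 HP replicate and no other stage, and 319 with 2 or more HP replicates but a single positive fragment elsewhere.

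Several lists shared identical fragments to an extent that touches the choice. HB Medium 2 and HP High 2 had 5086 fragments in common, 49.1% of the smaller list, and HP Medium 1 and HP Low 2 had 1848, 37.5% of the smaller. HE1 Low 4 shared 80.8% with HE1 Negative 3, and HE1 Medium 2 shared 78.9% with HE1 Negative 1. Without HB Medium 2 and HP High 2 the rule kept 416 sites, and without HP Medium 1 and HP Low 2 it kept 524. Without HE1 Medium 2 and HE1 Low 4 it kept 785. The part of shared fragments in the choice was not tested beyond these counts.

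Many of the sites rested on 1 fragment. At 241 sites (31.4%) a single distinct fragment was found in 2 replicates, and at 452 (58.9%) at least 1 fragment was identical in 2 replicates. Sites positive in HP and elsewhere had such a fragment in 47.4%. At equal numbers of distinct fragments the shares were 37.5% against 36.5% (2 fragments), 41.0% against 36.2% (3) and 49.4% against 49.6% (4 or more). Of sites positive at 1 other stage only, 42.8% (ES), 30.9% (HB), 17.9% (HE1) and 24.4% (HE2) rested on a single distinct fragment. When each HP replicate had to bring a fragment that no other HP replicate listed, 342 sites were kept. Like sites positive at 1 other stage only, whose median widths were 241 bp (ES), 271 bp (HB), 278 bp (HE1) and 265 bp (HE2), the HP-only sites were narrow, at 231.5 bp. The median was 620 bp for sites positive in HP and at another stage and 297 bp for all sites. Their median was 2 HP positive fragments and their highest 39.

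The site with the largest number of fragments lay 5329 bp from the start of Kdm6b, which encodes a demethylase of histone H3 lysine 27, at chr11:69418584-69419424, outside protein-coding genes. It held 29, 9, 0, 1 and 0 positive fragments in HP replicates 1 to 5, and 37 distinct fragments in all. It was also listed in HP Negative cells, with 7, 7, 0, 2 and 0 fragments. None of the 20 Negative lists of the other stages held it. The site nearest to Bicra, which encodes a subunit of a chromatin remodelling complex, was alike, with 10, 5, 0, 1 and 0 positive and 2, 2, 0, 2 and 0 Negative fragments (chr7:16051817-16052403). Both sites were thus seen in YFP-positive and YFP-negative HP cells of 3 replicates.

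The other named sites positive in 3 HP replicates held far fewer fragments. The site nearest to Sap18b, at chr8:95832427-95832888, had 4, 1 and 1 in replicates 1 to 3. In an intron of Lrrc75a, the site nearest to the ion channel gene Trpv2 (chr11:62608924-62609383) had 2, 3 and 1 in replicates 1, 2 and 5. The Lyrm9 site, in an intron of that gene, had 1, 4 and 1 in the same replicates. The Capn5 site had 3, 1 and 1 there, and the intronic site of Smad6, an inhibitor of BMP and TGF-beta signalling, had 2, 1 and 1. Sites nearest to Arhgef10l, Mocos and Kif20b completed the first 10. Of these 10, 8 had an HP Negative fragment, while the Smad6 and Kif20b sites had none.

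The Irf8 site stood apart in how its fragments were built. It had 24 distinct fragments in HP replicate 1 and a single one in replicate 2. Of its 24 distinct fragments, 20 began at the same base, and 23 ended inside a run of 50 bp of alternating C and A (chr8:120821611-120821660), seen in the printed sequence. The Kdm6b site, with 37 fragments, had 31 distinct starts and 27 distinct ends. Over all 768 sites, counting fragments that share an edge once left 287 sites (37.4%) with 1 fragment, against 241 before.

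**Figure D1:**
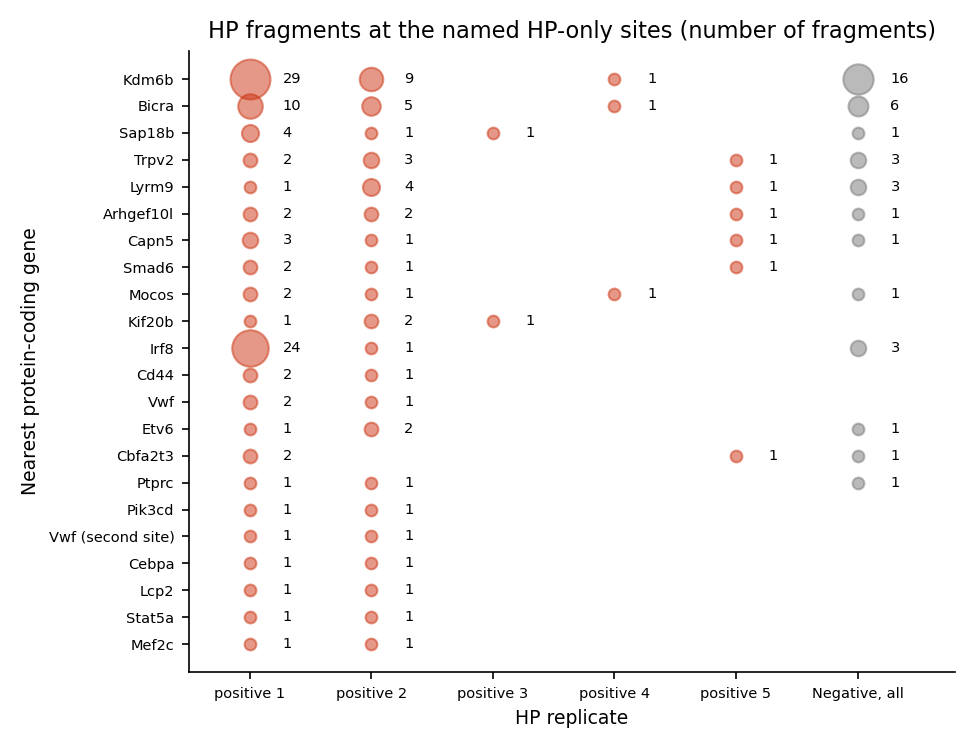
Number of distinct fragments at the 22 named HP-only sites (rows, by nearest protein-coding gene) in the positive lists of HP replicates 1 to 5 (red) and summed over the 5 HP Negative lists (grey), with circle area growing with the number printed beside it. Most circles lie in replicates 1 and 2, and only the Kdm6b, Bicra and Irf8 sites reached 10 or more fragments in a replicate.

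The Negative lists took part in merging fragments into sites but not in choosing the HP-only ones. They show where cells without YFP carried the sites. Of the 768 sites, 251 (32.7%, 95% Wilson interval 29.5% to 36.1%) were listed in an HP Negative list, beside 21.8% of all sites. In Negative lists of the other stages far fewer were listed: 33 in HE2 (4.30%, interval 3.08% to 5.97%), 11 in ES (1.43%, 0.802% to 2.55%), 8 in HB (1.04%, 0.529% to 2.04%) and 1 in HE1 (0.130%, 0.0230% to 0.734%). All sites were listed there in 23.4%, 17.6%, 19.6% and 36.8%, in the same order. Without replicate 1, which left 44 sites, the highest share in the Negative cells of another stage was 15.9%, and without replicate 2, which left 101, it was 6.93%. Thus the HP-only sites lay above the share of all sites in HP Negative cells and below it in the Negative cells of each earlier stage. All sites include those that only a Negative list held, and positive lists that excluded sites share fragments with Negative lists. The choice therefore fixed part of the low shares at earlier stages, and how much was not tested. Sites positive in HP and at another stage were listed in HP Negative cells more often still, in 66%. Among sites with 2 HP positive fragments the shares were 25.6% for HP-only sites and 39.7% for those others. These intervals cover counting error over sites only.

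In HP Negative lists 1 to 5, the sites took 137, 141, 61.2, 117 and 89.7 of each 10000 listed distal fragments (109 ± 33.7, SD, n = 5). The ES lists held 7.03, 2.99, 7.76, 0 and 0 (3.56 ± 3.72). The HB lists held 2.39, 3.67, 0, 0 and 46.0 (10.4 ± 19.9), the last from 2 of 435 fragments. As listed, the 5 HP lists all lay above the other 20, although HP replicates 3 and 5 rested on 3 and 2 fragments. Several short lists of other stages held 0. Their limit of 3 counts reached 136 per 10000 in ES replicate 5 and 150 in HE2 replicate 3. Such short lists cannot be ranked below HP.

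Hemogenic endothelium, the source of the progenitors, listed the sites least at HE1 and somewhat more at HE2. The HE1 lists held 1 fragment among 60347, in replicate 2. Replicate 1 of HE1 listed 0 of 44978, but 31467 of its fragments were also in HE1 Medium 2, a positive list by which sites were excluded, so the choice of sites fixed much of this 0. The HE2 lists held 18.3, 12.7, 0, 0 and 0 (6.20 ± 8.72), though the last 3 listed only 200, 514 and 371 fragments. Sites positive in HP and at another stage took a similar part of the HP Negative lists (6735 to 7444 per 10000) and of the HE2 ones (5835 to 6868).

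**Figure D2:**
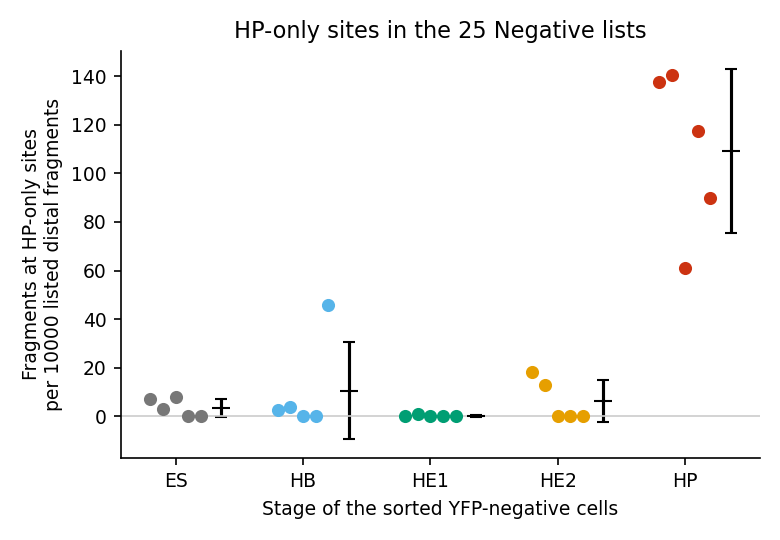
Fragments at the HP-only sites per 10000 listed distal fragments in each of the 25 Negative lists (points, 5 replicates per stage in order), with the mean and SD at the right of each stage. All 5 HP lists, from 61.2 to 141, lie above every list of ES, HB, HE1 and HE2, the highest of which is HB replicate 5 at 46.0. Points at 0 from short lists cannot be ranked below HP, since their limit of 3 counts reaches 136 (ES replicate 5) and 150 (HE2 replicate 3).

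The HP Negative lists were not separate material from the HP positive ones, since 62.1% of the distinct HP Negative fragments at the sites (205 of 330) were identical to an HP positive one. Sites positive at 1 other stage only were listed in the Negative cells of their own stage in 39.2% for ES (17.6% of all sites), 35.8% for HB (19.6%), 71.6% for HE1 (36.8%) and 24.0% for HE2 (23.4%). A share above that of all sites was thus not particular to HP, and HE2-only sites lay at the level of all sites. HE2-only sites were the nearest relatives, with 6.75% of them in HP Negative lists. The methods limit fragments to open chromatin peaks without saying of which stage, and its part in the result was not tested.

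Tested site by site, the Negative lists gave no call at an HP-only site. Only 2 of the 768 passed the filter of a fragment in 4 or more of the 25 lists. Over all 9068 sites tested with limma, 6 (0.0662%) were higher in HP than in the mean of the other stages at an adjusted p of 0.05, and 0 were lower, with 480 sites at an unadjusted p under 0.05 in either direction. The 2 tested sites were at chr19:57211818-57211978 (log2 difference 0.28 ± 0.18, SE) and chr6:142455529-142456019 (0.36 ± 0.23), both with a limma adjusted p of 0.770. With a filter of 2 lists, 19550 sites were tested, 58 of them HP-only, and 3 of all sites were called. The Kdm6b site was the only HP-only one among the 3, with a log2 difference of 1.78 ± 0.36 (SE) and a limma adjusted p of 0.0343. It was listed in 3 of 5 HP Negative lists and in 0 of the other 20, so it passed that filter through HP alone. Its adjusted p is therefore a description and no support. With the replicate number as a block the call was lost, at a limma adjusted p of 0.140, and with no filter beyond 1 fragment the adjusted p was 0.238.

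Against HE2 alone, limma called 0 of 9068 sites, with 371 at an unadjusted p under 0.05. The 2 HP-only sites tested differed by 0.02 ± 0.22 (chr19) and 0.48 ± 0.29 (chr6) on the log2 scale, each with a limma adjusted p of 1. At this depth differences at single sites were mostly not detectable.

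The gates gave the level of YFP at which HP cells carried the sites. In replicate 1, Low, Medium and High lists held 172, 206 and 193 fragments at the sites per 10000, and in replicate 2 they held 378, 366 and 394. Within each of these replicates the gates lay close together, and every gate of replicate 2 lay above every gate of replicate 1. That order follows in part from the choice. The sites had to be positive in 2 replicates, and 756 were in replicate 1 and 708 in replicate 2. Replicate 2 listed only 22985 positive fragments against 74457. Replicates 3 and 4, with 186 to 383 fragments per list, held 230, 269 and 607 and 287, 84.4 and 233. In replicate 5, Low held 360 and Medium/High 364.

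By site, 457 of the 768 (59.5%) were found in Medium or High lists only, 295 (38.4%) in both and 16 (2.08%) in Low only. Sites positive in HP and elsewhere, which hold more fragments each, were in both in 62.0%. More Medium or High than Low fragments were seen at 609 sites (79.3%), below the 89.2% of all 11217 sites positive in 2 or more HP replicates. In replicate 1 the Low list held 14.9% of the listed positive fragments and in replicate 2 it held 21.4%, so a majority in Medium or High follows in part from the sizes of the lists. Of 698 sites positive in replicates 1 and 2, 432 (61.9%) were in Medium or High only in both replicates and 15 (2.15%) in Low only in both. Of 9885 such sites positive in HP and elsewhere, which hold more fragments each, these shares were 39.2% and 0.455%.

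**Figure D3:**
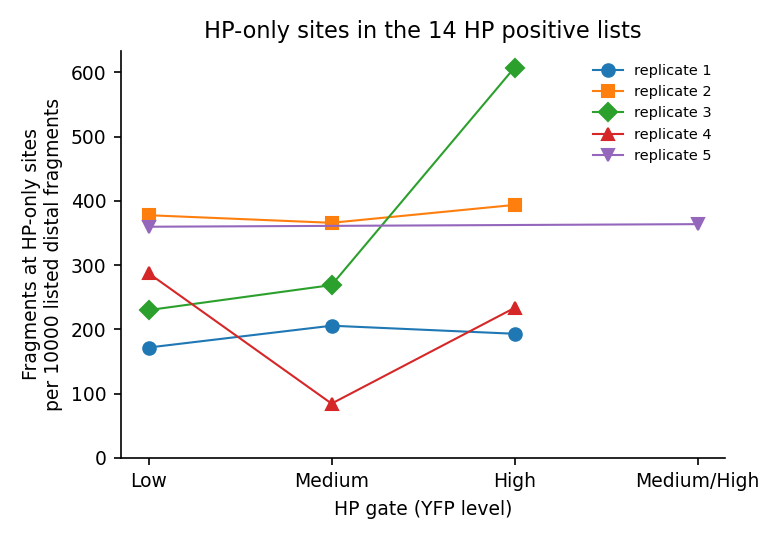
Fragments at the HP-only sites per 10000 listed distal fragments in the 14 HP positive lists, by gate, with 1 line per replicate. Replicates 1 and 2 run nearly level from Low to High, and the short lists of replicates 3 and 4 scatter from 84.4 to 607.

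The gates belong to the lists that chose the sites, so their values are a description with no test. At the Kdm6b site the Low lists held 13 positive fragments, Medium 8 and High 20. The difference of the means (Medium and High together, minus Low) was -1.05 ± 1.28 (SE) on the log2 scale. Each replicate weighs the same, so 1 fragment among the 383 of Low replicate 4 counted heavily in it. At the Sap18b site this difference was 0.84 ± 0.79 (SE), with 1 of its fragments in the short High list of replicate 3. Of the 18 HP-only sites in 4 or more of the 10 Low and high sets, 5 lay above 0. Their median was -0.29, against -0.17 over all 2081 sites that passed this filter. The direction depended on the setting, for HP-only sites and for all sites alike. With a filter of 2 sets 504 of the 768 sites lay above 0, with a median of 0.18 against 0.04 over all sites. Without scaling to list size 11 of the 18 did so, with a median of 0.20 against 0.40 over all sites.

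A second look at the rule used 2 replicates to choose and the other 3 to see. Replicates 1 and 2 alone chose 726 sites, of which 698 (96.1%) also met the full rule. In positive lists of replicates 3 to 5, HP held 16 of the 726 (2.20%), HE2 held 8 (1.1%) and HE1 held 1 (0.138%), while ES and HB held 10 each (1.38%). Of all sites, HP held 3.89%, HE2 8.51%, HE1 5.75%, ES 12% and HB 15.8%. The chosen sites thus lay under the background at all 5 stages, and least so in HP. Per 10000 positive fragments, HP replicates 3 to 5 held 57.6, 32.6 and 68.3 at them (52.9 ± 18.3, SD, n = 3), and HE2 held 9.22, 0 and 54.2 (21.2 ± 29.0), so that HE2 overlapped HP through 3 fragments of replicate 5.

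The plasmid lists show how much of each site was cloned from each stage, since the open chromatin of every stage was put first into the vector pDONR and then into the reporter vector pSKB. There was 1 list per stage and vector, so no test was possible. In pDONR, 763 of the 768 sites were covered from HP material, 760 from HE2, 753 from HE1, 694 from HB and 691 from ES. These are shares of 99.3%, 99%, 98.0%, 90.4% and 90.0%, beside 93.9%, 96.5%, 97.4%, 92.3% and 89.7% of all sites, so that coverage from HE1, HB and ES was near that of all sites. The median site had 1.59 RPM (reads scaled to a list total of 1000000) from HP, 1.1 from HE2, 0.737 from HE1, 0.543 from HB and 0.848 from ES. Levels thus rose towards HP, but not evenly, with ES above HB and HE1.

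The HP list was the highest of the 5 pDONR lists at 43.9% of the HP-only sites, against 17.6% of all sites and 21.3% of sites positive in HP and at another stage. Sites positive at 1 other stage only had their own stage highest in 80.4% (ES), 55.7% (HB), 50.5% (HE1) and 26.0% (HE2). The log2 ratio of HP to the mean of the other 4 had a median of 0.60 (middle 50% from -0.19 to 1.37), against 0.00 for sites positive in HP and at another stage and -0.38 for all sites. In pSKB the order was less clear. HP was highest at 27.4% of the HP-only sites and 17.3% of all sites, with ES highest at 28.7%, and the median log2 ratio was -0.58, close to the -0.47 of sites positive in HP and elsewhere and above the -1.37 of all sites. The Capn5 site was among the clear cases, with 1.22 RPM in HP pDONR and 0 to 0.464 in the others, and with 2.73 in HP pSKB and 0 to 0.214 in the others. The Kdm6b site was cloned from all stages alike, at 35.3 to 56.6 RPM in pDONR.

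**Figure D4:**
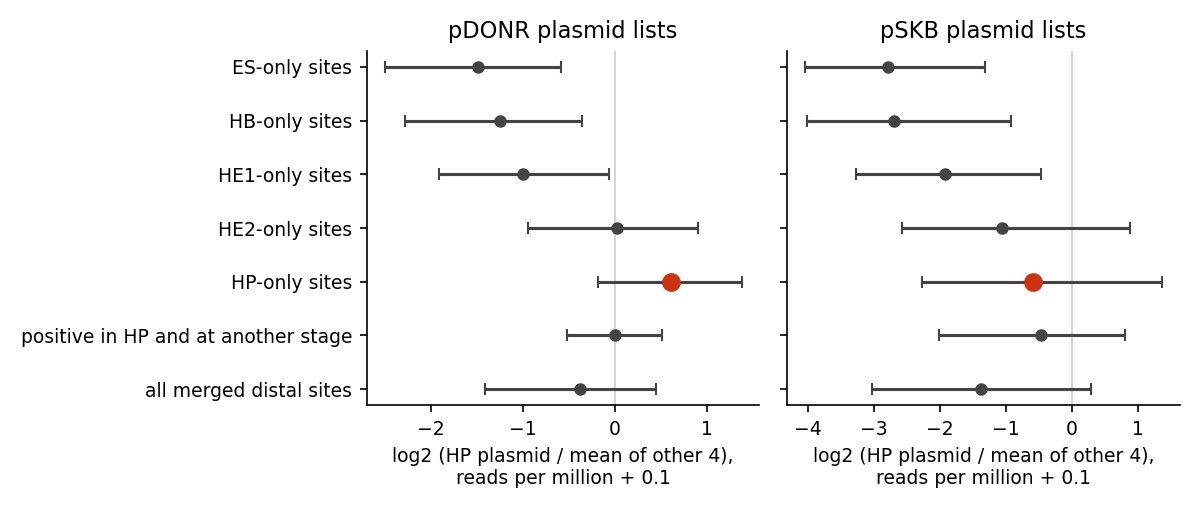
Median (point) and middle 50% of sites (bar) of the log2 ratio of RPM in the HP plasmid list to the mean of the other 4 lists, with 0.1 added, for pDONR (left) and pSKB (right), by class of site. The HP-only sites (red) have the highest median of the 7 classes in pDONR, at 0.60, and lie level with sites positive in HP and at another stage in pSKB.

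The fragments themselves came from the material of several stages. Of 1693 distinct HP positive fragments at the sites, 1484 (87.7%) were identical to a plasmid fragment. Identical fragments were found for 27.7% in ES pDONR, 22.6% in HE1, 19.1% in HE2, 6.14% in HP and 2.78% in HB. Sites positive in HP and at another stage gave 22.7%, 31.9%, 18.9%, 6.69% and 4.95%, in the same order. Exact copies from the HP plasmid were therefore rare in both classes. Among the wild-type HM-1 controls, which carry no cassette, 13 fragments (0.768%) had an identical match.

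The words of blood factors were counted in the middle 200 bp of each site, on both strands and with overlaps allowed. TGTGGT (RUNX) was in 193 of the 768 sites (25.1%) against 18.2% of all sites, 18.5% of sites positive in HP and at another stage and 24.8% of HE2-only sites. It was in 13.1% of HE1-only, 16.1% of HB-only and 15.1% of ES-only sites. AGGAAGT (ETS) was in 13.9% against 11.4% of all sites, 17.3% of HE2-only sites and 14.7% of HE1-only sites. HP-only and HE2-only sites thus held the RUNX word at nearly the same rate, above all sites, while the ETS word was as common in HE1-only sites.

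Several words of other factors were less common than over all sites. GGAATG (TEAD) was in 10.3% against 13.8%, TGANTCA (AP-1) in 8.59% against 11.6%, AGATAA, the word of GATA factors, in 10.8% against 13.0% and AACAATG (SOX) in 2.86% against 3.96%. HE1-only sites held AP-1 in 19.9% and TEAD in 18.5%. HB-only sites held AP-1 in 5.38% and SOX in 1.62%, and ES-only sites held AP-1 in 9.20% and SOX in 3.18%. Low shares of AP-1 and SOX were thus not particular to HP. TEAD was in 12.5% of HB-only, 13.7% of HE2-only and 15.8% of ES-only sites, and in 11.5% of sites positive in HP and at another stage. CAGCTG (an E-box of TAL1 and its partners) was in 15.1% against 16.3%, TTGCNNAA (C/EBP) in 6.90% against 7.22% (11.3% against 10.7% in a window of 300 bp), and TAACNG (MYB) in 19.8% against 18.7%. The GC content had the same median as over all sites, 51.0%.

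**Figure D5:**
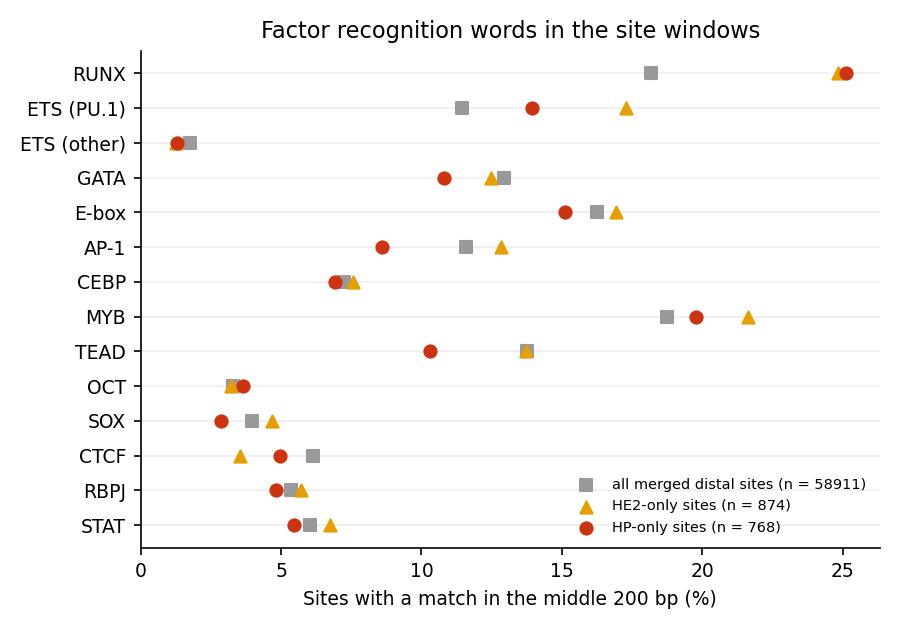
Share of sites with at least 1 match to each recognition word in the middle 200 bp, for all sites (grey squares), HE2-only sites (orange triangles) and HP-only sites (red circles). The RUNX word stands at 25.1% in HP-only and 24.8% in HE2-only sites against 18.2% in all sites, while AP-1 and TEAD lie lower in HP-only sites than in all sites.

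Sites with a RUNX word did not stand out in HP Negative cells, where 32.6% of them were listed against 32.7% of those without. The HP pDONR list was the highest at 51.8% of them against 41.2% of those without, with an ETS word at 55.1% against 42.1%, with a GATA word at 51.8% against 42.9% and with an AP-1 word at 50.0% against 43.3%. With a TEAD word the HP pDONR list was the highest at 41.8% against 44.1%, the other way. A higher share was thus not particular to RUNX or ETS and not seen with every word. The median log2 ratio was 0.56 with and 0.64 without a RUNX word. Sites seen in Low were listed in HP Negative cells in 43.7%, and those in Medium or High only in 25.2%. Of the 311 sites seen in Low, 295 were also in Medium or High. Listing in HP Negative cells rose with support, from 25.6% to 37.5% and 50.0% at 2, 3 and 4 or more HP positive fragments. The part of this in the difference between gates was not tested. By support, 27.4% of the sites with 1 distinct fragment and 35.1% of those with more were so listed.

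By position, 402 sites (52.3%) lay in introns of protein-coding genes, against 45.4% of all sites, and 308 (40.1%) outside such genes, against 46.3%. Coding exons held 27 (3.52%, against 3.04%) and untranslated regions 17 (2.21%, against 2.26%). The median distance to the nearest protein-coding start was 11641.5 bp against 16625 bp over all sites, and 221 sites (28.8%, against 21.7% of all sites) lay within 5 kb. Sites positive in HP and at another stage had a median of 11694 bp, so this nearness was shared by sites seen in HP. Repeats made up 11.6% of the bases, against 12% over all sites.

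The sites were spread over 720 nearest genes, of which 673 had 1 site, 46 had 2 and only Psma1, which encodes a proteasome subunit, had 3. The Psma1 sites lay 16807, 40393 and 41363 bp from its start and held 2, 2 and 3 HP positive fragments. Of 149 genes of blood in 4 lists (transcription factors, myeloid genes, red cell and platelet genes, and surface and signalling genes), 25 had an HP-only site within 100 kb. All sites reached 148 of them and sites in 2 or more HP replicates 122.

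By list, 10 of 40 blood transcription factor genes were reached (Gata1, Lyl1, Nfe2, Cebpa, Cebpe, Irf8, Etv6, Cbfa2t3, Stat5a and Stat5b), by 1.43% of the sites against 1.03% of all sites, 1.51% of sites positive in HP and at another stage and 1.92% of ES-only sites. Myeloid genes were reached by 0.781% against 0.711%, among them Csf2rb, a shared chain of cytokine receptors, and Cyba and Ncf4, both subunits of the phagocyte oxidase. Red cell and platelet genes, including the erythropoietin receptor gene Epor, Itgb3 and Vwf, were reached by 0.651% against 0.496%. Blood surface and signalling genes were reached by 0.651% against 0.726%, and pluripotency genes by 0.651% against 0.450%. Endothelial genes were reached by 0.521% against 0.693%, and mesoderm and cardiac genes by 0.260% against 0.429%. These shares rest on 2 to 11 sites per list.

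Among sites whose nearest start was that of a blood gene, the Cbfa2t3 site lay in an intron of that gene, which encodes a corepressor of red cell progenitors, at chr8:122656096-122656506, with 2 positive fragments in replicate 1, 1 in replicate 5 and 1 Negative fragment. The Cd44 site, 12791 bp from the start of this adhesion receptor gene at chr2:102914262-102914650, had 2 and 1 in replicates 1 and 2. The Etv6 site had 1 and 2, with 1 Negative fragment. Vwf had 2 intronic sites, 3034 bp and 1316 bp from the nearest annotated Vwf start, with 2 and 1 and with 1 and 1 fragments. The Cebpa, Lcp2, Stat5a and Pik3cd sites each had 1 fragment in each of replicates 1 and 2 and none in HP Negative cells. The nearest start was far away for 3 named sites, that of Ptprc (CD45) at 554665 bp, that of Mef2c at 483154 bp and that of Kif20b at 444909 bp.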

How the data were processed

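The authors sorted HM-1 reporter cells by YFP, amplified the integrated fragments by PCR and sequenced them. Per the paper's methods, reads were trimmed with Trim Galore, aligned to mm10 with Bowtie2 and filtered with SAMtools and bedtools against control lists, to fragments of the plasmid pools and to open chromatin peaks. The sorted lists, as deposited, give each fragment once, by its interval, with no read number, so depth was known only as the number of listed fragments, from 126 to 45186 per list (median 2387). For the 10 plasmid and 3 HM-1 control lists the authors deposited read counts per fragment, which were turned here into RPM (reads scaled to a list total of 1000000). Groups and replicates came from the sample titles.

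Intervals that shared 1 bp or more were merged. Sites were compared between lists with limma 3.58.1 in R 4.3.3 on log2(fragments per 10000 listed distal fragments + 1), with Benjamini-Hochberg adjustment over all sites with a fragment in 4 or more sets. A fold on this scale understates the change of low sites. The script was tested on simulated data. Other steps used Python 3.11.15, pandas 2.3.3, scipy 1.17.1, pysam 0.24.0, samtools 1.23.1 and matplotlib 3.10.9. Log2 plasmid ratios had 0.1 RPM added. Intervals of shares are 95% Wilson intervals, and the limit at a count of 0 is 3 counts; both cover counting error only, since PCR fragments without molecular identifiers are not independent molecules. Genes came from GENCODE vM21 on GRCm38. Same-numbered HE2 and HP Negative lists deviated together (correlations from 0.19 to 0.32), as did those of HE1 and HP (0.20 to 0.46), while ES, HB and the gates did not in every pair. The pairing comes from the data, not the labels.

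Named sites were the first 10 by number of HP replicates and then of fragments, and sites whose nearest start was that of a listed blood gene, up to 12 in the same order. The sites, gene lists and recognition words were chosen with earlier results of these data known. Alternatives covered the merging, the replicates and fragments required, the filter, the pseudocount, the scale, the replicate block, each replicate left out, the window and the distance to genes.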

Additional observations from a re-analysis of the deposited data

Results flagged for a closer look

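Among the 8 groups of lists looked at, 2 held a list far from the others. The groups had 5 lists each, except HP Medium and HP High, which lack replicate 5. Chance is usually taken to mark about 1 group in 20, but this rate does not hold for lists that are mostly 0. HB Negative replicate 5 held 46.0 fragments at the HP-only sites per 10000, against 0 to 3.67 in the other HB lists, from 2 of 435 fragments. HE1 Negative replicate 2 held 0.772 per 10000, from 1 fragment, with 0 in the other HE1 lists, so that any single fragment would have been marked.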

How the results depend on the processing

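The number of HP-only sites depended mainly on replicates 1 and 2. It was 768 as reported, 16 with 3 or more HP replicates, 41 with 2 or more distinct fragments per replicate, and between 44 and 769 with each replicate left out (44 without replicate 1, 101 without replicate 2). Among alternatives chosen after seeing the data, it was 416 without HB Medium 2 and HP High 2, and 342 when each HP replicate needed a fragment that no other HP replicate listed. Other mergings, fragment filters and an equal number of fragments per stage gave 601 to 832. The share listed in HP Negative cells was 62.5% with 3 or more replicates, 41.1% without HB Medium 2 and HP High 2 and 25.7% to 36.4% with each replicate left out. The share with more Medium or High than Low fragments was 87.5% with 3 or more replicates and 65.9% to 79.9% with each replicate left out. The share in introns was 43.8% with 3 or more replicates and 45.5% to 52.7% with each replicate left out. The causes were not tested.

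The share of chosen sites found again in HP replicates that did not choose them was 2.20% for replicates 1 and 2, against 3.89% of all sites. It was 20.7% when replicates 1 and 3 chose, 40.9% for 1 and 4, 25.5% for 1 and 5, 90.0% for 2 and 3, 80.0% for 2 and 4, 55.2% for 2 and 5, 80.0% for 3 and 4, 90.0% for 3 and 5 and 95% for 4 and 5. Of all sites, the same HP lists held 22.0%, 22.0%, 21.7%, 38.3%, 38.3%, 38.2%, 41.1%, 41.0% and 41.0%, in the same order. The share for 1 and 3 thus lay below that of all sites. Those pairs chose 10 to 55 sites and looked for them in longer lists, and other stages rose too. For replicates 4 and 5, HE2 held 100% of the sites and HE1 90.0%. For replicates 3 and 5, HE2 also held 100%, and for replicates 1 and 3 it held 24.1%. HE2 thus lay above HP in each of these pairs. Per 10000 fragments the value for replicates 1 and 2 was 55.2.

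In limma's test of Negative lists, 0 HP-only sites were called as reported and 1 with a filter of 2 lists. That site passed the filter through HP alone. Over all sites the 6 calls became 1 with a pseudocount of 0.25, 3 with a filter of 2 lists, 0 with no filter or no scaling, and 0 to 11 with each replicate left out (0 without replicate 1 or 2, 11 without replicate 4, 3 without replicate 5). They became 0 without HE1 Negative 1 and 3 and 51 without HP Negative 3, both chosen after seeing the data. With the replicate block, 0 of 9068 sites were called against the mean of the other stages and 0 against HE2. With the block and a filter of 2 lists together, added after seeing the data, the Kdm6b call was lost (limma adjusted p = 0.140). In a window of 300 bp the C/EBP word turned from -0.32 to 0.67 percentage points relative to all sites, and CG from 0.72 to -0.78, while the other recognition words kept their direction.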
